A study of Mus musculus with 10 samples.

Results

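Microglia and macrophage genes were followed as a set of 38 genes, chosen by symbol from the 53801 genes of the table to read the myeloid content of each library. All 38 symbols were found. Itgam stood under a pair of identifiers, of which the second held 1 read in all 10 libraries, so its values are those of the first. The libraries came from wild-type mouse dorsal brain. StarTrack reporter plasmids, which mark the offspring of targeted progenitors, were electroporated in utero at embryonic day 12, and at embryonic day 14 cells were sorted by flow cytometry into NG2+ and GFAP+ populations of 5 libraries each, all in batch 1. The surface proteoglycan NG2 is the product of Cspg4, and the filament protein GFAP marks astroglia. The labels call the cells of both groups neural stem cells. They do not say which libraries came from which animals, so p-values measure the spread between these libraries, which may be partly technical.

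Microglia are the resident macrophages of the brain parenchyma. They arise in the yolk sac, enter the neural tube early in development and depend on signalling through the receptor Csf1r. Border macrophages of the meninges and vessels come from related precursors and share most of their genes with microglia. Neither cell type arises from the electroporated neural progenitors. In bulk libraries, fewer myeloid cells and less RNA per myeloid cell cannot be told apart.

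Library totals ran from 14256176 to 17569730 counts in NG2 and from 12945436 to 16189859 in GFAP libraries. NG2 replicate 5 had the highest total and reads for the fewest genes, 18903, against 22988 to 24444 in the other 9 libraries. For several of the genes in which it stood apart, estimates are given with and without it. Cspg4 averaged 6.75 ± 1.47 CPM in NG2 libraries and 1.07 ± 0.356 CPM in GFAP libraries (SD, n = 5 each), while Gfap had 6 reads over all NG2 libraries and 10 over all GFAP libraries. CPM is the read count per 1000000 reads of the library, scaled with the TMM factors of edgeR.

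Transcripts of the set were present in every library, and the ranges of their amount in the NG2 and GFAP libraries overlapped. Summed over the 38 genes, they reached 917, 409, 140.0, 353 and 439.8 CPM in NG2 replicates 1 to 5, against 282, 189, 281, 451 and 158 CPM in GFAP replicates 1 to 5. NG2 replicate 1 was the highest and NG2 replicate 3 the lowest of all 10, and the other 3 NG2 libraries fell inside the range of the GFAP libraries. The sums averaged 452 ± 285 CPM in NG2 libraries and 272 ± 114 CPM in GFAP libraries (SD, n = 5 each). The highest NG2 library exceeded the lowest 6.55-fold, and the highest GFAP library, replicate 4, exceeded the lowest, replicate 5, 2.86-fold. The ratio of the group means was 1.66, and it was 1.24 without NG2 replicate 1 and 1.68 without NG2 replicate 5.

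The same libraries stood at the ends for most of the genes, while the place of NG2 replicate 5 varied from gene to gene. The SD over 29 members of the deviation from the library's median deviation was 1.23 in NG2 replicate 5 and 0.299 to 0.584 in the other 9 libraries, on the log2 scale. This SD was not computed over all genes tested, of which 19.8% had their highest value in NG2 replicate 5. NG2 replicate 1 was the highest library for 35 of the 38 genes, and the exceptions were Csf1r, with its highest value in NG2 replicate 5, and Trem2 and Pf4, with theirs in GFAP replicate 4. Over all 16187 genes tested, NG2 replicate 1 was the highest library for 6.44%. Within the GFAP group, replicate 4 was the highest for 33 of the 38 genes and replicate 5 the lowest for 21. Within the NG2 group, replicate 3 was the lowest for 28 genes and replicate 5 for the other 10. Among all 10 libraries, NG2 replicate 3 was the lowest for 20 of the 38 genes and NG2 replicate 5 for 9. Over all genes tested, NG2 replicate 3 was the lowest of the 10 for 11.3% and NG2 replicate 5 for 27.4%. Ties at 0 reads, in Trem2 and Siglech, were counted for the NG2 library, and within a group for the library of lower replicate number. The fold of NG2 replicate 1 over NG2 replicate 3 had a median of 11.8 over the 30 genes with reads in NG2 replicate 3 that are known mainly from myeloid cells. The corresponding median was 3.14 over the 6 genes Sirpa, Cyba, Lgmn, Olfml3, Slco2b1 and Unc93b1, which are also known from other cell types, with a range of 1.82 to 23.5. Within these 6, Slco2b1 and Unc93b1 had folds of 23.5 and 14.9, above the median of the 30.

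**Figure D1:**
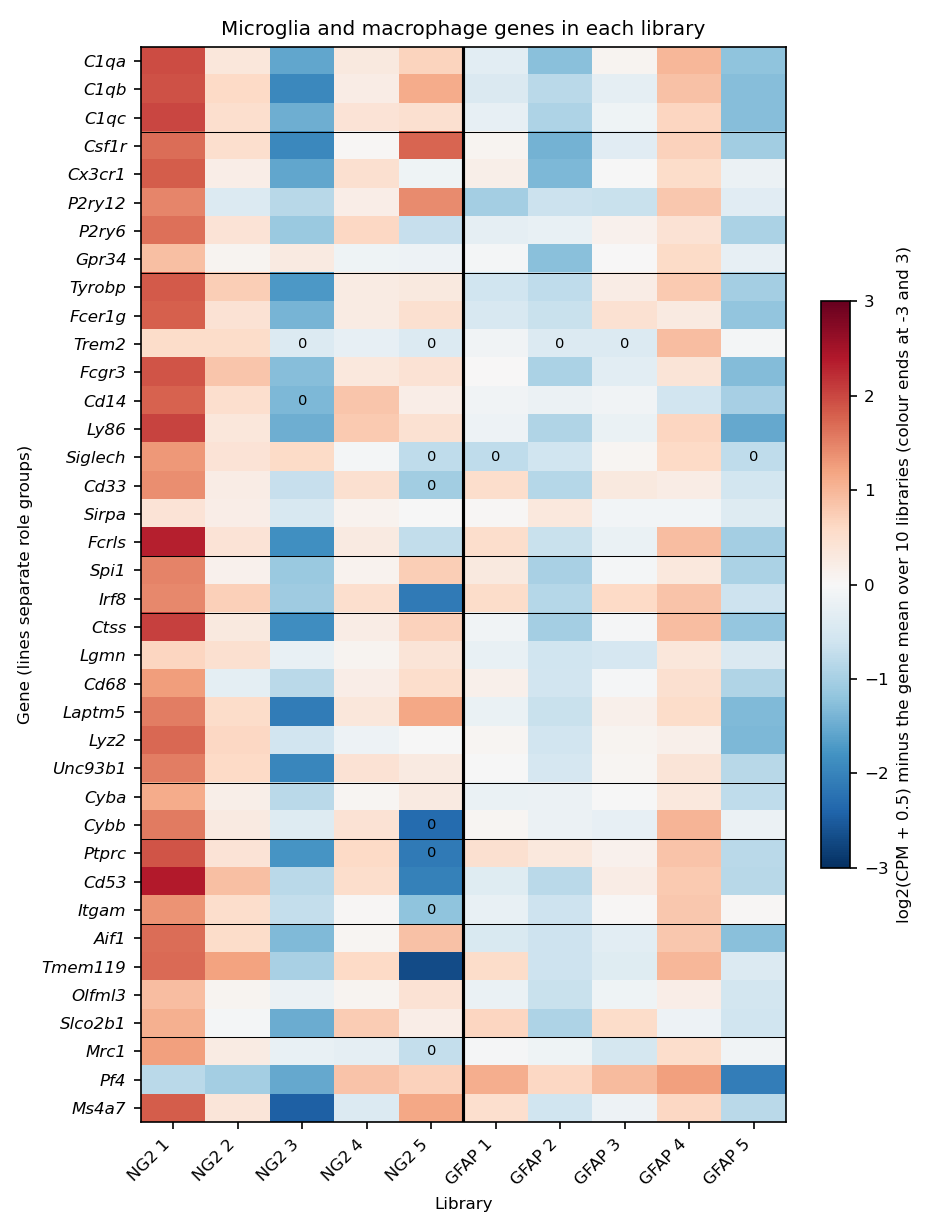
Each row is 1 of the 38 genes, in role groups, and each column 1 library, with the 5 NG2 libraries left of the 5 GFAP libraries; colour gives log2(CPM + 0.5) minus the gene's mean over the 10 libraries, and 0 marks a library with no read. NG2 replicate 1 is the highest column for 35 of the 38 genes, NG2 replicate 3 is low for most, and NG2 replicate 5 is high for some genes and without reads for 7.

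The design sets NG2+ against GFAP+ cells, here for the myeloid transcripts in each population. Of the 38 genes, 35 passed the expression filter, and Trem2, Siglech and Mrc1 did not. By edgeR's quasi-likelihood test, 0 of the 35 were higher and 0 were lower at a Benjamini-Hochberg adjusted p of 0.05, where 0.0741% of all genes tested were higher and 0.0741% lower. The smallest adjusted p was 0.272. By DESeq2 and in the comparison of the authors' deposited table, no member passed either (0 in each), against 2.66% and 1.16% of the genes with an adjusted p there. DESeq2 gave no adjusted p for 10 of the 38. At an unadjusted p under 0.05, edgeR gave 4 higher members and 0 lower ones, where the shares of all genes were 6.45% and 6.33%. With 1 library left out, the 4 became 1 without NG2 replicate 1, GFAP replicate 2 or GFAP replicate 5, 2 without NG2 replicate 2, 8 without NG2 replicate 5, 13 without GFAP replicate 4 and 20 without NG2 replicate 3. In the same fits 15.2%, 13.7%, 9.9%, 10.2%, 17.3%, 9.41% and 9.69% of all genes, in that order, passed this mark in either direction. At the same mark DESeq2 gave 4 members, against 8.54% of all genes, and the authors' deposited comparison also 4, against 9.28%. No member separated the groups, while 1.52% of all genes had every NG2 library above every GFAP library and 1.76% had every NG2 library below.

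The estimates lay on the NG2 side for 34 of the 35 tested genes, against 48.5% of all genes tested, and the exception was Pf4. Their median log2 fold change, NG2 minus GFAP, was 0.73, beside -0.0097 over all genes tested. The genes varied together from library to library, so the 35 estimates are not independent of each other. Without NG2 replicate 1 the median was 0.19, with 26 estimates above and 9 below 0, without NG2 replicate 3 it was 0.99, and without NG2 replicate 5 0.80. Leaving out NG2 replicate 1 lowered the estimate of 34 of the 35 genes and moved 13 of them by over 1.5 times. The biological coefficient of variation, edgeR's estimate of the relative spread between libraries of a group, had a median of 0.575 over the members and of 0.198 over all genes tested. Standard errors were correspondingly wide, the median being 0.54 (log2) against 0.17 for all genes. Neither comparison was matched for expression level. Of the 35 tested members, 6 had a mean of 20 CPM or more in NG2 replicates 1 to 4, against 8131 of the 16187 genes tested. The part of expression level in the spread was not tested. For 36 of the 38 genes the difference between the group means was smaller than the SD of the NG2 group.

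**Figure D2:**
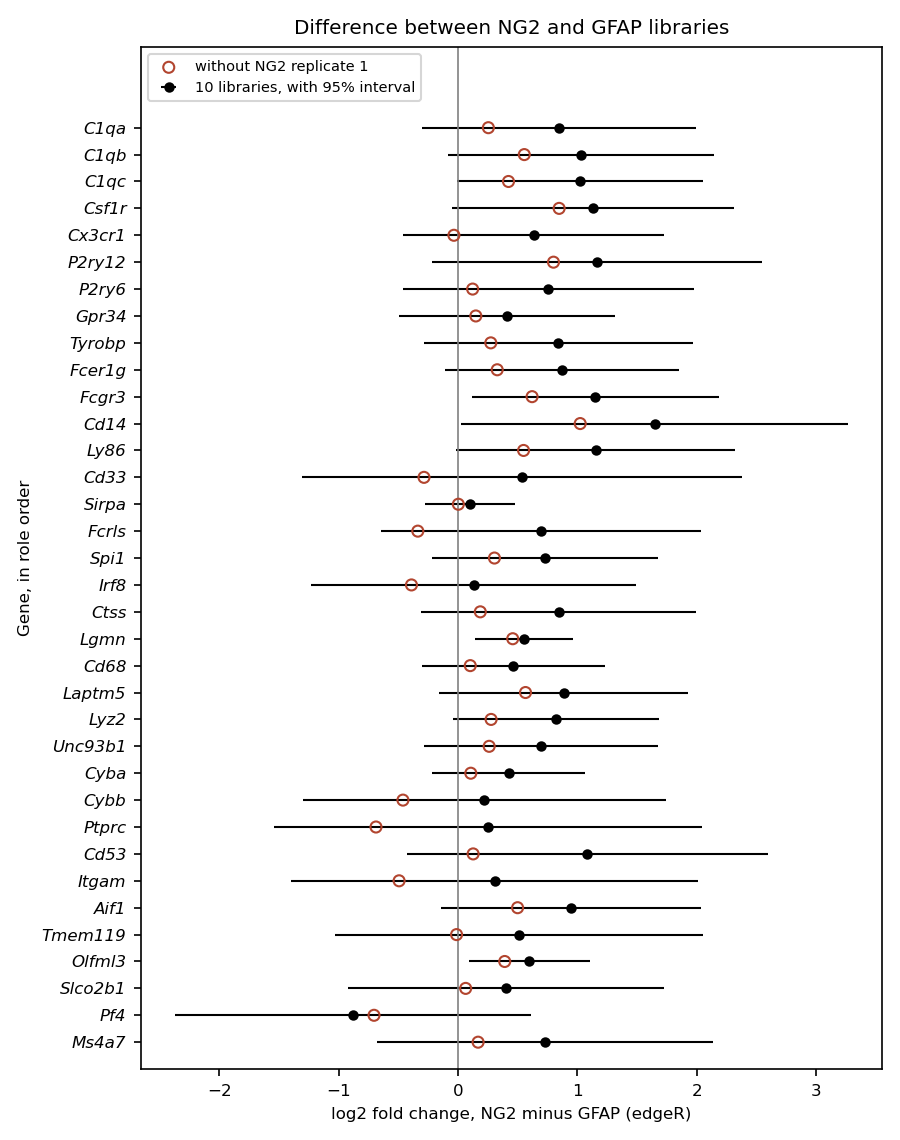
Log2 fold change of the 35 tested genes, NG2 minus GFAP, with 95% intervals from edgeR (filled points), and the estimate without NG2 replicate 1 (open circles). All filled points except that of Pf4 lie above 0, most intervals cross 0, and the open circles have a median of 0.19.

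The complement subunits C1qa, C1qb and C1qc encode the 3 chains of C1q, the recognition molecule of the classical complement pathway, which brain macrophages secrete. They lie side by side on the minus strand of mouse chromosome 4 (GRCm38), with C1qb at 136880129 to 136886187 (ENSMUSG00000036905), C1qc at 136889804 to 136893065 (ENSMUSG00000036896) and C1qa at 136895917 to 136898803 (ENSMUSG00000036887). C1qb stood at 97.0, 38.7, 6.33, 29.7 and 55.4 CPM in the 5 NG2 libraries and at 18.8, 14.3, 20.9, 47.2 and 10.1 CPM in the 5 GFAP libraries. Its highest value, in NG2 replicate 1, and its lowest, in NG2 replicate 3, belonged to the same group, and the groups overlapped. C1qc stood at 84.3, 29.6, 7.16, 27.4 and 29.1 CPM in the 5 NG2 libraries and at 17.4, 10.5, 19.0, 32.3 and 8.24 CPM in the 5 GFAP libraries, again with NG2 replicate 1 highest and NG2 replicate 3 lowest. C1qa ranged from 3.41 to 43.8 CPM in NG2 libraries and from 4.33 to 22.2 CPM in GFAP libraries. The ratio of C1qb to C1qc reads per library was between 0.883 and 1.91, with the highest ratio in NG2 replicate 5, although the level of C1qb itself differed 15.3-fold across the libraries. The log2 fold changes of the 3 genes were 0.85 (SE 0.54) for C1qa, 1.03 (SE 0.52) for C1qb and 1.02 (SE 0.48) for C1qc, with edgeR Benjamini-Hochberg adjusted p of 0.541, 0.426 and 0.396. Without NG2 replicate 1 they were 0.25, 0.56 and 0.42, in the same order. The 95% interval of C1qb ran from -0.082 to 2.14.

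Per length of the gene, in the FPKM deposited by the authors, C1qb was the most abundant of the 38, at a mean of 41.5 ± 31.1 in the NG2 and 20.2 ± 13.2 in the GFAP libraries (SD, n = 5 each). Lgmn followed at 25.8 ± 5.93 and 17.4 ± 5.13 FPKM, Ctss at 23.6 ± 20.8 and 13.03 ± 8.24 FPKM, and Fcer1g at 19.5 ± 14.9 and 10.6 ± 5.11 FPKM, in each case for the NG2 and then the GFAP libraries. Neighbours among these 4 genes did not differ beyond their spread. At the other end, Trem2, a phagocytic receptor of microglia, was at means of 0.0412 FPKM in the NG2 and 0.0410 FPKM in the GFAP libraries, and Mrc1, the mannose receptor of border macrophages, was at 0.0724 and 0.0496 FPKM.

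Among the receptors, Csf1r, the receptor for the ligands Csf1 and Il34 on which microglia depend, stood at 40.5, 17.5, 2.85, 12.5 and 42.6 CPM in the 5 NG2 libraries and at 13.05, 4.27, 9.56, 20.3 and 5.72 CPM in the 5 GFAP libraries. NG2 replicates 1 and 5 lay above all GFAP libraries and NG2 replicate 3 below them. Its log2 fold change was 1.13 (SE 0.55, edgeR, Benjamini-Hochberg adjusted p = 0.407), and it was 0.80 without NG2 replicate 5. Csf1r shares 873 exon bases with Hmgxb3 on the opposite strand, so with the strand setting not given, part of its reads is of uncertain origin. Cx3cr1, the receptor for the neuronal chemokine Cx3cl1, was found at 22.1, 6.82, 1.67, 8.34 and 5.30 CPM in the 5 NG2 libraries and at 6.65, 2.01, 5.84, 8.82 and 5.17 CPM in the 5 GFAP libraries, and in NG2 replicate 5 it did not share the height of Csf1r. The ratio of Csf1r to Cx3cr1 reads was 8.04 in that library and 1.11 to 2.57 in the other 9. The log2 fold change of Cx3cr1 was 0.63 (SE 0.51, edgeR adjusted p = 0.645), and it was -0.034 without NG2 replicate 1.

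The nucleotide receptors P2ry12 and P2ry6 and the lysophosphatidylserine receptor Gpr34 follow here by their ranges. P2ry12, which senses ADP and guides microglial processes, ranged from 0.487 to 4.37 CPM in NG2 libraries and from 0.366 to 2.59 CPM in GFAP libraries. Its estimate was 1.17 (SE 0.65, edgeR adjusted p = 0.471), 0.83 without NG2 replicate 5 and 1.87 without GFAP replicate 4. P2ry6, a receptor for UDP, ranged from 0.556 to 6.69 CPM in NG2 libraries and from 0.681 to 2.59 CPM in GFAP libraries. Gpr34 had 4.23, 2.20, 2.57, 1.82 and 1.803 CPM in NG2 replicates 1 to 5, against 1.95, 0.565, 2.05, 3.29 and 1.63 CPM in GFAP replicates 1 to 5. NG2 replicate 3, the lowest library for most of the set, was here the second highest of its group. Gpr34 lies inside Cask on the opposite strand, and Cask averaged 108 ± 21.3 CPM in NG2 libraries and 101 ± 11.2 CPM in GFAP libraries (SD, n = 5 each). Whether reads of Cask enter the count of Gpr34 was not tested. P2ry12 likewise lies within Med12l on the opposite strand.

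Most adaptors and innate receptors of the cell surface were likewise highest in NG2 replicate 1. Fcer1g, the common gamma chain of Fc receptors, stood at 39.0, 14.8, 3.82, 12.98 and 15.2 CPM in the 5 NG2 libraries and at 7.62, 6.59, 15.0, 13.2 and 4.49 CPM in the 5 GFAP libraries. Tyrobp, the adaptor through which Trem2 signals, ranged from 1.53 to 23.5 CPM in NG2 libraries and from 2.79 to 11.1 CPM in GFAP libraries. NG2 replicate 1 was the highest and NG2 replicate 3 the lowest library for both genes. Fcgr3, a low-affinity receptor for immunoglobulin G, had 23.9, 11.2, 2.23, 7.65 and 8.34 CPM in NG2 replicates 1 to 5, against 6.10, 2.89, 4.78, 8.05 and 2.18 CPM in GFAP replicates 1 to 5. The NG2 libraries of replicates 1, 2 and 5 lay above all GFAP libraries. Its log2 fold change was 1.151 (SE 0.48, edgeR, Benjamini-Hochberg adjusted p = 0.344), and the unadjusted p was 0.0317. It belongs to a family of related Fc receptor genes, so that some reads may be shared. Cd14, the co-receptor for lipopolysaccharide, had the largest estimate of the set, 1.65 (SE 0.76, edgeR adjusted p = 0.385) and 1.02 without NG2 replicate 1, on low levels of 3.82, 1.31, 0, 1.76 and 0.958 CPM in NG2 replicates 1 to 5, against 0.671, 0.628, 0.683, 0.350 and 0.136 CPM in GFAP replicates 1 to 5. NG2 replicate 3 had 0 reads for it, which allows up to 0.209 CPM (3 counts, for counting error only).

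Ly86, a partner of the Toll-like receptor relative Cd180, showed an estimate of 1.153 (SE 0.55, edgeR adjusted p = 0.398) and of 0.55 without NG2 replicate 1, and Fcrls, an Fc receptor-like gene used as a microglial marker, of 0.70 (SE 0.63, edgeR adjusted p = 0.684). Fcrls reached 41.2 CPM in NG2 replicate 1, while the other NG2 libraries had 1.81 to 10.5 CPM and the GFAP libraries 3.54 to 15.3 CPM. Without that library its estimate was -0.34. The lectins Siglech and Cd33 and the receptor Trem2 were near the limit of detection, with 48, 59 and 15 reads over the NG2 libraries and 17, 40 and 15 reads over the GFAP libraries. Differences in these 3 genes were not detectable at this depth.

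Sirpa, the receptor for the signal Cd47, stood apart from the other surface receptors. It was at 27.5, 23.8, 14.5, 22.1 and 20.3 CPM in the 5 NG2 libraries and at 21.2, 25.5, 19.4, 19.2 and 15.6 CPM in the 5 GFAP libraries, and its highest library exceeded its lowest 1.90-fold, the narrowest range of the 30 members with reads in every library, over which the median fold was 13.05. Sirpa is also known from neurons. Its log2 fold change was 0.10 (SE 0.18, edgeR, Benjamini-Hochberg adjusted p = 0.857), with a 95% interval of -0.27 to 0.47. NG2 replicate 1 was its highest library too, but by a small margin over GFAP replicate 2, a library in which most of the set was low.

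**Figure D3:**
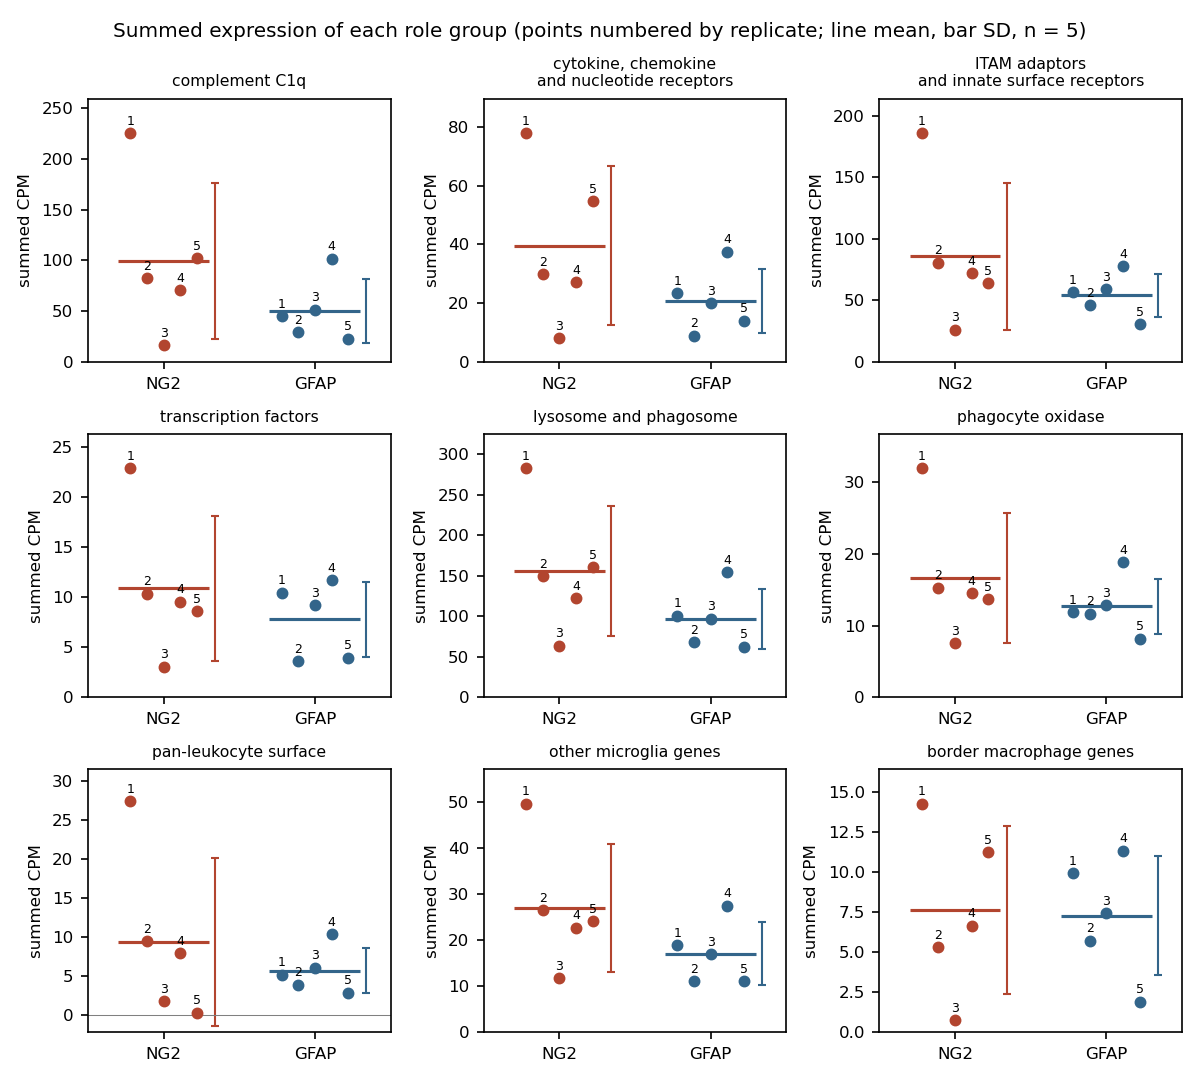
Summed CPM of the members of each role group in the 5 NG2 libraries (left in each panel) and the 5 GFAP libraries (right), with points numbered by replicate, lines for means and bars for SD (n = 5). NG2 replicate 1 is the highest of the NG2 libraries and GFAP replicate 4 the highest of the GFAP libraries in all 9 panels, and NG2 replicate 5 drops to 0.338 CPM in the panel of pan-leukocyte genes.

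The transcription factors Spi1, known as PU.1, and Irf8 act together in the formation of macrophages and microglia. Spi1 stood at 14.2, 5.23, 1.95, 5.21 and 8.28 CPM in the 5 NG2 libraries and at 5.98, 2.20, 4.55, 6.09 and 2.25 CPM in the 5 GFAP libraries, and its log2 fold change was 0.73 (SE 0.44, edgeR, Benjamini-Hochberg adjusted p = 0.523). Irf8 stood at 8.66, 5.10, 1.11, 4.33 and 0.282 CPM in the 5 NG2 libraries and at 4.45, 1.38, 4.63, 5.597 and 1.70 CPM in the 5 GFAP libraries. The factors moved together in 9 libraries, where the ratio of Spi1 to Irf8 reads was 0.984 to 1.75. In NG2 replicate 5 it was 29.4, from 147 reads of Spi1 and 5 of Irf8. The log2 fold change of Irf8 was 0.13 (SE 0.64, edgeR adjusted p = 0.959), 0.45 without NG2 replicate 5 and -0.39 without NG2 replicate 1.

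Promoters of members were read for the letters GAGGAA, the ETS core within sites bound by PU.1, on both strands of the 250 bases before each RefSeq start (GRCm38.p6). The windows are shown because Spi1, which encodes PU.1, is itself a member. Whether PU.1 has a part in the differences between libraries was not tested. Windows were at hand for 28 of the 38 genes, 35 windows in all, since some genes have several starts and a few windows overlap. The motif was found in 17 of the 35 windows (48.6%) and in 23.3% of all 32851 windows. The longer form GAGGAAGT, which contains the core, was found in 2 of the 35 windows (5.71%) and in 2.44% of all windows. A match is a description of these letters and no measure of binding. In the sequences of C1qb (chr4:136886201-136886450, minus strand), Ctss (chr3:95526536-95526785, plus strand), Cd53 (chr3:106790150-106790399, minus strand) and Cyba (chr8:122432941-122433190, minus strand), written 5′ to 3′ in the direction of the gene, capitals mark the core. C1qb is the member of highest FPKM, Ctss a lysosomal protease, Cd53 is a pan-leukocyte gene, and Cyba, a gene known from many cell types, is shown as a window without a match. The windows of Cx3cr1, Fcer1g, Lyz2 and Irf8, genes known mainly from myeloid cells, also held no match. A window of Slco2b1, which is also known from other cell types, held the core.
C1qb: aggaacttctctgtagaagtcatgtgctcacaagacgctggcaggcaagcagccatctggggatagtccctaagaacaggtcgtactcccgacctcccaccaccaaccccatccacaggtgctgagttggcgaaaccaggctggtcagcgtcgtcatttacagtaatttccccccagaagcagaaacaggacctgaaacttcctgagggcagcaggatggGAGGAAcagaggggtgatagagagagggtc
Ctss: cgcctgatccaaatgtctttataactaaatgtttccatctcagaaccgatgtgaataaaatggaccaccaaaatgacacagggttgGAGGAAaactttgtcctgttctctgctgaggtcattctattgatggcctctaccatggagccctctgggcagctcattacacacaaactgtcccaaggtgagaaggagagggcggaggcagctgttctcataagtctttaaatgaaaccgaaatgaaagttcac
Cd53: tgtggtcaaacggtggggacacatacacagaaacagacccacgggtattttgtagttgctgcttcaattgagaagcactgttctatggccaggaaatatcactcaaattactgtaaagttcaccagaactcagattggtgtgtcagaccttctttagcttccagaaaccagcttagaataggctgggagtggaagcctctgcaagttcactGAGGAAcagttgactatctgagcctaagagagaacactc
Cyba: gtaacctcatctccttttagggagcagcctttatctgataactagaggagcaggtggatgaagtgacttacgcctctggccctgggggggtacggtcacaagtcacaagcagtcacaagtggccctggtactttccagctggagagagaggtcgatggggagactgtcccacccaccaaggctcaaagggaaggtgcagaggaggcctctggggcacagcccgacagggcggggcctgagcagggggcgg
The first base of the motif lies 30 bases before the start in C1qb, 164 bases before it in Ctss and 39 bases before it in Cd53.

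Among the lysosomal and phagosomal genes, Ctss, the protease cathepsin S of antigen-presenting cells, stood at 79.9, 23.4, 4.80, 22.2 and 30.8 CPM in the 5 NG2 libraries and at 17.6, 9.11, 18.4, 36.5 and 8.24 CPM in the 5 GFAP libraries, with NG2 replicate 1 highest and NG2 replicate 3 lowest. Its log2 fold change was 0.84 (SE 0.54, edgeR, Benjamini-Hochberg adjusted p = 0.544), and it was 0.19 without NG2 replicate 1. Lgmn, the asparaginyl endopeptidase legumain, which many cell types express, stood at 76.3, 68.1, 41.8, 51.1 and 64.0 CPM in the 5 NG2 libraries and at 41.5, 31.8, 34.2, 61.7 and 35.9 CPM in the 5 GFAP libraries. Its values spanned 2.40-fold, against 16.6-fold for Ctss. The log2 fold change of Lgmn was 0.55 (SE 0.19, edgeR, Benjamini-Hochberg adjusted p = 0.272), the smallest adjusted p of the set, and the 95% interval ran from 0.14 to 0.96. NG2 replicates 1, 2 and 5 lay above all GFAP libraries, and GFAP replicate 4 lay above the remaining NG2 libraries. In the authors' deposited table its adjusted p was 0.0959, also the smallest of the members.

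Laptm5, a lysosomal membrane protein of leukocytes, ranged from 2.92 to 42.2 CPM in NG2 libraries and from 5.31 to 21.0 CPM in GFAP libraries. Cd68, a glycoprotein of macrophage lysosomes, ranged from 4.87 to 21.8 CPM and from 4.56 to 12.5 CPM in the NG2 and the GFAP libraries. Lyz2, the lysozyme of macrophages, ranged from 7.86 to 40.6 CPM in NG2 libraries and from 4.43 to 13.4 CPM in GFAP libraries, and reads shared with its close paralog Lyz1 cannot be told apart. Lyz1 was counted with 0 reads over the NG2 and 2 over the GFAP libraries, against 1360 and 753 for Lyz2. Unc93b1, which carries Toll-like receptors to endosomes, had 21.7, 11.1, 1.46, 9.85 and 8.62 CPM in NG2 replicates 1 to 5, against 7.01, 4.90, 7.44, 9.45 and 3.74 CPM in GFAP replicates 1 to 5. The log2 fold changes of Laptm5, Cd68, Lyz2 and Unc93b1 lay between 0.46 and 0.88, with edgeR Benjamini-Hochberg adjusted p between 0.415 and 0.630.

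Cyba and Cybb encode the p22phox and gp91phox subunits of the phagocyte NADPH oxidase, which form 1 membrane complex. Cyba stood at 25.1, 12.8, 6.19, 11.7 and 13.7 CPM in the 5 NG2 libraries and at 9.76, 9.98, 11.2, 14.3 and 6.47 CPM in the 5 GFAP libraries. Cybb stood at 6.82, 2.48, 1.39, 2.89 and 0 CPM in the 5 NG2 libraries and at 2.07, 1.70, 1.59, 4.55 and 1.70 CPM in the 5 GFAP libraries. Cyba spanned 4.06-fold over the libraries and had 243 reads in NG2 replicate 5, where Cybb had 0 and the other 4 NG2 libraries together had 202. The log2 fold changes were 0.43 (SE 0.30, edgeR adjusted p = 0.592) for Cyba and 0.22 (SE 0.71, edgeR adjusted p = 0.932) for Cybb, and the second was 0.55 without NG2 replicate 5 and -0.46 without NG2 replicate 1.

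NG2 replicate 5 held 0.338 CPM of the 3 pan-leukocyte genes together, against 2.86 to 10.4 CPM in GFAP libraries, and the next lowest NG2 library, replicate 3, held 1.81 CPM. The tetraspanin Cd53 stood at 17.3, 5.85, 1.46, 4.45 and 0.338 CPM in the 5 NG2 libraries and at 2.13, 1.44, 3.49, 5.39 and 1.43 CPM in the 5 GFAP libraries. Ptprc, the phosphatase CD45 of the leukocyte surface, stood at 7.57, 2.41, 0.139, 2.82 and 0 CPM in the 5 NG2 libraries and at 2.56, 2.20, 1.90, 3.43 and 0.749 CPM in the 5 GFAP libraries. Itgam, the integrin CD11b, had 67 reads in the NG2 and 53 in the GFAP libraries, and 0 in NG2 replicate 5. NG2 replicate 5 was the lowest library for all 3 genes, although it was the second highest library of its group for C1qb. It was also the lowest library for 27.4% of all genes tested. The ratio of C1qb to Cd53 reads was 164 there and 4.33 to 9.91 in the other 9 libraries. The log2 fold change of Cd53 was 1.08 (SE 0.71, edgeR adjusted p = 0.555), 1.40 without NG2 replicate 5 and 0.13 without NG2 replicate 1. For Ptprc it was 0.25 (SE 0.84, edgeR adjusted p = 0.935), 0.58 without NG2 replicate 5 and -0.69 without NG2 replicate 1.

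In NG2 replicate 5, 7 of the 38 genes had 0 reads, namely Cd33, Cybb, Itgam, Mrc1, Ptprc, Siglech and Trem2, which allows each up to 0.169 CPM. In the other libraries 0 to 2 members had 0 reads. Of all genes with at least 10 reads in each of the other 9 libraries, 2.24% had 0 reads in NG2 replicate 5. Of the 25 members that met this mark, 1 had 0 reads there. A further 3, Tmem119, Irf8 and Cd53, were below 0.1 times the mean of the other 4 NG2 libraries. Tmem119 had 1 read, against 373 in the other 4. Of the 17 tested members with a mean of 5 to 20 CPM in those 4 libraries, 2 were below that mark, and of all tested genes in the same range 1.73% were. Of the 12 tested members under 5 CPM, 5 were below it, against 21.3% of the tested genes of that range. None of the 6 members at 20 CPM or more was below it. At the same time Csf1r, P2ry12 and Pf4 were each 2.32 times the mean of the other 4 NG2 libraries. For 19.8% of all genes tested, NG2 replicate 5 was the highest of the 10 libraries.

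**Figure D4:**
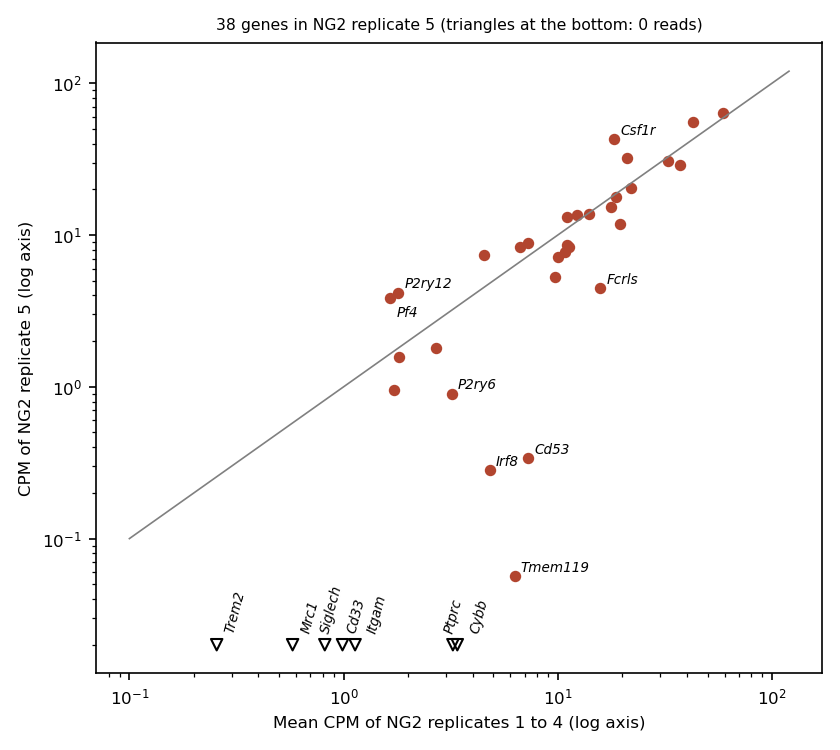
CPM of the 38 genes in NG2 replicate 5 (vertical log axis) against their mean in NG2 replicates 1 to 4 (horizontal log axis); the line marks equal values and triangles at the bottom mark 0 reads. Most genes lie near the line, 7 had 0 reads, and Tmem119, Irf8 and Cd53 lie below 0.1 times the mean of the other 4 libraries.

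Of the remaining microglial genes, Aif1, the calcium-binding protein Iba1, stood at 15.8, 6.96, 1.53, 4.77 and 8.90 CPM in the 5 NG2 libraries and at 3.23, 2.83, 3.57, 8.47 and 1.63 CPM in the 5 GFAP libraries, and its log2 fold change was 0.95 (SE 0.51, edgeR, Benjamini-Hochberg adjusted p = 0.456). Olfml3, a secreted protein also known from mural and fibroblast cells, stood at 19.4, 10.6, 8.76, 10.5 and 13.6 CPM in the 5 NG2 libraries and at 8.60, 6.03, 9.03, 11.4 and 6.60 CPM in the 5 GFAP libraries. It never fell below 6.03 CPM, and NG2 replicates 1 and 5 lay above all GFAP libraries. Its log2 fold change was 0.60 (SE 0.24, edgeR, Benjamini-Hochberg adjusted p = 0.318), and the unadjusted p was 0.0244. Tmem119, a membrane protein used to tell microglia from other macrophages, had 11.2, 7.71, 1.32, 4.89 and 0.0564 CPM in NG2 replicates 1 to 5, against 4.76, 1.82, 2.28, 6.58 and 2.18 CPM in GFAP replicates 1 to 5. Its log2 fold change was 0.51 (SE 0.72, edgeR adjusted p = 0.813), 0.84 without NG2 replicate 5 and -0.012 without NG2 replicate 1. The organic anion transporter Slco2b1 ranged from 0.139 to 3.27 CPM in NG2 libraries and from 0.440 to 2.32 CPM in GFAP libraries, and it shares 471 exon bases with Gm15635 on the opposite strand.

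The genes linked to border macrophages did not behave alike. Ms4a7, a membrane protein of border macrophages, stood at 11.8, 3.99, 0.139, 2.13 and 7.38 CPM in the 5 NG2 libraries and at 4.45, 1.82, 2.66, 4.90 and 1.498 CPM in the 5 GFAP libraries, with NG2 replicate 1 highest and NG2 replicate 3 lowest. The log2 fold change of Ms4a7 was 0.73 (SE 0.66, edgeR adjusted p = 0.684), and 0.56 without NG2 replicate 5. Pf4, a chemokine of platelets and of border and yolk sac macrophages, stood at 1.02, 0.826, 0.417, 4.33 and 3.83 CPM in the 5 NG2 libraries and at 5.18, 3.64, 4.71, 5.74 and 0.136 CPM in the 5 GFAP libraries. NG2 replicate 1, the highest library for 35 of the set, was among the low libraries for Pf4, together with NG2 replicates 2 and 3 and GFAP replicate 5. The ratio of Pf4 to C1qb reads was 0.0105 in NG2 replicate 1 and 0.275 in GFAP replicate 1, the ends of its range over the 10 libraries. Pf4 had the single negative estimate, -0.88 (SE 0.70, edgeR adjusted p = 0.638), which was -1.21 without NG2 replicate 5, and the groups overlapped. Mrc1 had 34 reads in the NG2 and 24 in the GFAP libraries. The markers Lyve1 and Cd163 of border macrophages had means of 0.0682 and 0.121 CPM in NG2 libraries and 0 and 0.0516 CPM in GFAP libraries.

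A further list of 50 genes of macrophages and leukocytes was read in the same libraries. Of its members 36 were tested, and 0 were higher and 0 lower by edgeR at an adjusted p of 0.05, with 4 higher and 0 lower at an unadjusted p under 0.05 and 2 higher and 0 lower by DESeq2. The shares of all genes were 6.45% and 6.33% at the unadjusted mark, and 2.66% by DESeq2 in either direction. The DESeq2 calls were Coro1a and Sla. The estimates were positive for 31 and negative for 5, with a median of 0.53, and NG2 replicate 1 was the highest library for 38 of the 50. The list had 0 reads for 19 genes in NG2 replicate 5 and for 1 to 8 in the other libraries. Its members of highest mean CPM, the actin regulator Coro1a and the adaptor Sla, did not follow that order. Coro1a stood at 101 CPM in NG2 replicate 1 and 130 CPM in NG2 replicate 3, and Sla at 56.2 and 55.4 CPM. Whether their reads came from myeloid or other cells was not tested. Coro1a averaged 119 ± 16.2 CPM in NG2 libraries and 85.1 ± 10.7 CPM in GFAP libraries, and Sla 48.8 ± 12.3 and 27.5 ± 5.33 CPM (SD, n = 5 each). Their edgeR Benjamini-Hochberg adjusted p were 0.125 and 0.122. Without NG2 replicate 5, where Sla stood at 27.7 CPM, they were 0.0828 and 0.00553, so Sla passed the threshold in that fit, with a log2 fold change of 0.98. Without NG2 replicate 1 they were 0.0807 and 0.114. Among 8 ligands of microglial receptors, 7 were tested and Cd200, a ligand that restrains myeloid cells, was the 1 member past the threshold, higher in the NG2 libraries (64.2 ± 7.28 against 40.9 ± 3.39 CPM, log2 fold change 0.65, SE 0.11, edgeR adjusted p = 0.0379).

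Markers of other cell types were read by their sums. The summed level of 18 genes of lymphocytes, granulocytes and mast cells ranged over 30.3 to 64.9 CPM in NG2 libraries and 40.1 to 56.5 CPM in GFAP libraries, most of it from Kit, which neural cells express too (43.1 and 48.0 CPM on average in NG2 and GFAP libraries), and Cd3e, Cd8a, Klrb1c and Ly6g had 0 reads in all 10 libraries. Erythroid genes (11 of 12 found) summed to 263 to 511 CPM in NG2 libraries and 249.8 to 461 CPM in GFAP libraries, and 16 endothelial genes to 87.2 to 123 CPM in NG2 libraries and 86.9 to 144 CPM in GFAP libraries. Sums of 12 genes of pericytes and mural cells were 24.2 to 44.2 CPM in NG2 libraries and 21.99 to 42.8 CPM in GFAP libraries, and those of 12 genes of meningeal fibroblasts 16.5 to 34.6 CPM in NG2 libraries and 28.2 to 43.6 CPM in GFAP libraries. NG2 replicate 1 had 17.0 CPM of the fibroblast genes, near the bottom of their range, where the 38 genes were highest. Of the genes tested in these 5 lists, Cspg4, which the pericyte list holds, was the 1 that passed the threshold, by edgeR and by DESeq2. At an unadjusted edgeR p under 0.05, 3 of the 8 fibroblast genes tested were lower in NG2 libraries and 0 higher. The median log2 fold change of these 8 was -0.66. At that mark 1 of 11 endothelial genes was lower and 1 of 8 pericyte genes higher. The shares of all genes are those given above. The 12 radial glia genes summed to 1121 to 1942 CPM in NG2 libraries and 1718 to 2394 CPM in GFAP libraries and the 12 genes of differentiating neurons to 6363 to 9224 CPM in NG2 libraries and 5015 to 6492 CPM in GFAP libraries, and 0 of the 24 passed by edgeR. At an unadjusted p under 0.05 edgeR gave 4 radial glia genes lower and 8 neuronal genes higher in NG2 libraries, and DESeq2 called 2 radial glia genes lower, Pax6 and Sox9, and 5 neuronal genes higher, Tubb3, Rtn1, Stmn2, Gap43 and Nefm, against the same shares of all genes. Within the NG2 group the radial glia sum was highest in replicate 1, at 1942 CPM, and next in replicate 5, at 1856 CPM, as was the sum of the 38 genes. The neuronal sum was highest in NG2 replicate 3, at 9224 CPM, where that of the 38 genes was lowest. Other libraries did not follow this order. NG2 replicate 2 had the lowest radial glia sum, 1121 CPM, with 409 CPM of the 38 genes. GFAP replicate 2 had the highest radial glia sum, 2394 CPM, and the lowest neuronal sum, 5015 CPM. The 38 genes summed to 189 CPM in GFAP replicate 2. Transcripts of differentiating neurons were present in every library of cells labelled as neural stem cells. The part of these cell types in the myeloid values was not tested.

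**Figure D5:**
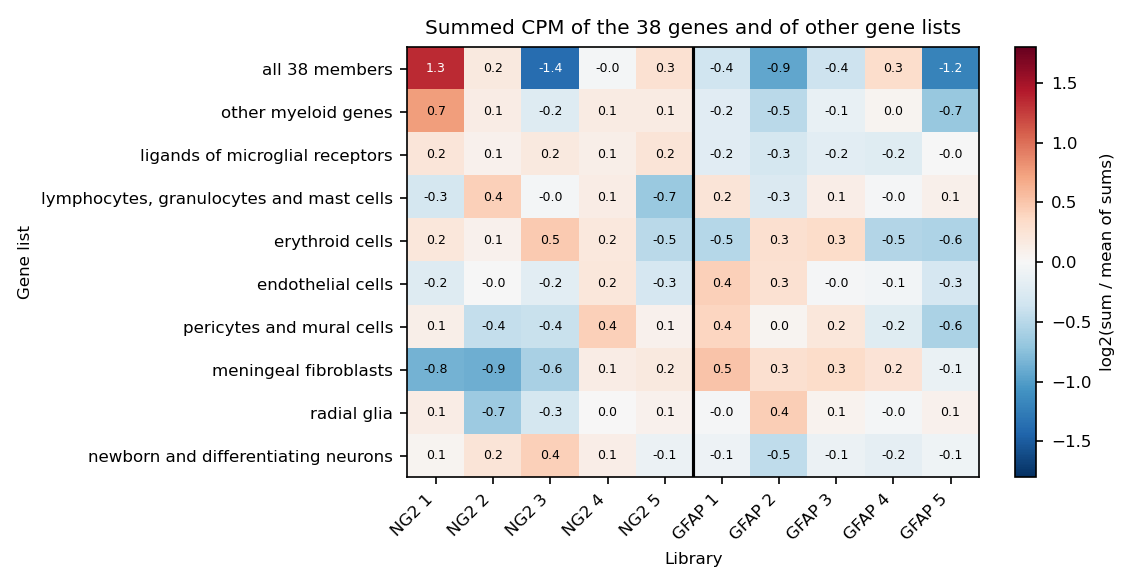
Log2 of the summed CPM of each gene list in a library over its mean over the 10 libraries, with NG2 libraries left of GFAP libraries. The 38 genes have the widest range of the 10 lists shown, from -1.4 in NG2 replicate 3 to 1.3 in NG2 replicate 1, and the list of other myeloid genes is highest in the same library.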

How the data were processed

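The authors deposited 1 table with raw read counts per gene for each of the 10 libraries, made with HISAT2 and featureCounts 1.5.0-p3 on GRCm38.p6, per the submitters' processing notes. How strand and multiply aligned reads were handled, and which annotation release was counted, is not given in the sources used here. RNA was amplified with SMARTer chemistry from small inputs and enriched for poly(A) transcripts, per the labels' protocols, and reads without molecular identifiers are not independent molecules. The same table held the authors' deposited FPKM per library, used for levels per gene length, and the authors' comparison of the groups, with a log2 fold change, p-values and a mean signal for each group, per the file headers. The tool behind that comparison is not stated there.

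Counts were tested with edgeR 4.0.16 (R 4.3.3): default expression filter, TMM scaling, quasi-likelihood test, Benjamini-Hochberg adjustment over the 16187 genes tested, threshold 0.05. Log2 fold changes are NG2 minus GFAP, and SE is the estimate divided by the root of F. Members are read off this fit, with no test over the set. DESeq2 1.42.0, voom (limma 3.58.1), other scalings and filters, a replicate block and leaving out each library were alternatives. Deviations by library used a pseudocount of 0.5 CPM. The fit was tested on simulated counts. Limits for 0 reads are 3 counts. Overlaps use the deposited coordinates and GENCODE exons, and promoters are from RefSeq. The members, the gene lists and the tests were chosen with earlier results of these data known. Values in every library were given for the members of highest mean CPM in each role group and for others where the text turns on them.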

Additional observations from a re-analysis of the deposited data

Results flagged for a closer look

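In 96 checks of a group of 5 libraries, over the 38 genes, their role groups and the sum, 6 had 1 library far from the other 4 by Dixon's criterion. Chance gives about 1 in 20 for a single check of normally distributed values. The genes varied together and the sums contain them, so the 96 checks are not independent. For 5 genes the outlying library was GFAP replicate 4, the highest of its group. There C1qb stood at 47.2 CPM with the next GFAP library at 20.9 CPM, P2ry12 at 2.59 with the next at 0.885 CPM, Trem2 at 0.77 with the next at 0.136 CPM, Cybb at 4.55 with the next at 2.07 CPM, and Aif1 at 8.47 with the next at 3.57 CPM. For Fcrls it was NG2 replicate 1, at 41.2 CPM with the next NG2 library at 10.5 CPM.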

How the results depend on the processing

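The counts of 0 members higher and 0 lower held under all 18 alternatives run. Without an expression filter, 15 of the 38 members had an unadjusted edgeR p under 0.05, against 10.1% of all genes. The smallest adjusted p of a member in that fit was 0.169. The median log2 fold change of the members stayed positive, at 0.34 by voom with sample weights, and from 0.19 (without NG2 replicate 1) to 0.99 (without NG2 replicate 3) when 1 library was left out. The ratio of summed CPM ranged from 1.24 to 2.000 in those fits. Over all genes, 58 were higher and 37 lower without an expression filter, 212 and 134 by DESeq2, 584 and 857 by voom, 3 to 70 and 0 to 47 with 1 library left out, against 12 and 12. The cause was not tested. Libraries that share a replicate number had correlated deviations of r = -0.021 to 0.083 over genes, so the numbers were not taken as pairs. With the replicate block, the median of the members was 0.50, and 1 gene was higher and 0 lower. Estimates that changed sign were uncalled before and after. By voom they were Gpr34 (-0.013), Itgam (-0.073), Pf4 (0.072) and Ms4a7 (-0.49), and with the block Irf8 (-0.29), Cybb (-0.28), Ptprc (-0.69), Itgam (-0.20) and Tmem119 (-0.075). With 1 library left out the estimates ranged over -0.034 to 0.91 for Cx3cr1, -0.28 to 0.87 for Cd33, -0.34 to 1.04 for Fcrls, -0.39 to 0.45 for Irf8, -0.46 to 0.62 for Cybb, -0.69 to 0.58 for Ptprc, -0.49 to 0.78 for Itgam and -0.012 to 0.87 for Tmem119, with the low end in each without NG2 replicate 1, and Irf8 was -0.074 without GFAP replicate 2 and -0.036 without GFAP replicate 5.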

Other observations

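Further myeloid genes, named after their values were seen, are given by library. The inflammatory chemokine Ccl4 had 2.11, 0.482, 0.348, 4.14 and 2.87 CPM in NG2 replicates 1 to 5, against 0, 0.377, 0.152, 0.630 and 0.272 CPM in GFAP replicates 1 to 5, and Ccl3 had 3.07, 0.344, 0.209, 3.14 and 1.41 CPM in NG2 replicates 1 to 5, against 0.183, 0.251, 0.228, 1.12 and 0.272 CPM in GFAP replicates 1 to 5. Both were highest in NG2 replicate 4, a library in the middle of the range for the 38 genes, and neither passed the expression filter. The costimulatory receptor Cd86 had 2.73, 0.413, 0.278, 0.753 and 8.96 CPM in NG2 replicates 1 to 5, against 0.610, 0.440, 1.82, 1.19 and 0.272 CPM in GFAP replicates 1 to 5, with its highest value in NG2 replicate 5. The log2 fold change of Cd86 was 1.62 (edgeR Benjamini-Hochberg adjusted p = 0.431), and 0.29 without that library. The macrophage marker Adgre1, which encodes F4/80, had 18.4, 8.54, 0.626, 7.34 and 5.47 CPM in NG2 replicates 1 to 5, against 6.34, 4.33, 5.16, 11.1 and 3.06 CPM in GFAP replicates 1 to 5, with NG2 replicate 1 highest and NG2 replicate 3 lowest.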
